A study of Mus musculus with 4 samples.

Results

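The cytokine, chemokine and receptor genes of the mouse hippocampus are described here in healthy tissue. The set holds the interleukins and their receptors, the CC, CXC and CX3C chemokines and their receptors, and the ligand or receptor genes of tumour necrosis factor, interferon and transforming growth factor beta (TGF-beta) signalling. Genes were taken by symbol from the probe sets that the array annotation pairs with exactly 1 gene, which gave 133 genes out of 18194 on the array, read by 216 probe sets. All 4 samples were used, numbered 11, 13, 15 and 17. Each is RNA from the whole hippocampus on the left side of a wild-type mouse, hybridised to 1 Affymetrix expression array, and together they form 1 group. The labels state no strain, age, sex or treatment, nor that the samples came from separate animals, so p-values measure only the spread between these samples. No other group was analysed.

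Cytokines are secreted or membrane-bound proteins through which cells steer inflammation, growth and survival. Most act through receptors made of several subunits, where a ligand-specific chain pairs with a shared one such as gp130, the product of Il6st. Chemokines are small cytokines that guide moving cells through G protein-coupled receptors. In healthy brain many inflammatory cytokines are kept low, while some chemokines have standing roles: neurons make CX3CL1, which microglia sense through CX3CR1, and CXCL12 guides the migration of developing granule cells.

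A level is the mean deposited log2 intensity of the 4 samples, read from whichever probe set of the gene averaged highest. Background was set at 6.75, the 95th percentile of the levels of 52 genes of testis, liver, skin, muscle and other tissues. A gene was called above or under background where limma's moderated test of its level against that limit gave an adjusted p under 0.05 over all 18194 genes, and not resolved otherwise. Of the 52 background genes, 3 were themselves called above (5.77%), Lor at 7.10, Krt10 at 7.44 and Lct at 7.84. About this share lies over the limit by its definition, so it does not measure how often calls are wrong. A call above background thus does not by itself show expression. Transcripts may be present below the limit, and probe sets differ in affinity, so no order is given between genes. In whole tissue, fewer cells of a type and less RNA per cell cannot be told apart. The tissue carried its expected markers: all 6 neuronal markers and 11 of 13 markers of hippocampal fields were above background, the exceptions being Grik4 at 6.40 ± 0.070 and Prox1 at 5.76 ± 0.073 (SD, n = 4).

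Most of the cytokine and receptor genes had no signal over background. Of the 133 genes, 17 were above background, 3 were not resolved and 113 were under it. The share above was 12.8%, against 38.4% of all genes on the array, and the share under was 85.0%, against 57.8%. A mean over the limit, whatever the test, was found for 20 of the genes, against 40.2% of all genes, and the median level was 4.19, against 5.99 over all genes. With the lower 90th percentile limit of 6.05, 23 of the genes were above, against 47.4% of all genes. With the highest background gene as the limit, 7.84, 5 were above, against 22.6% of all genes, and with the median over each gene's probe sets 7 were, against 24.0%. The genes above background were the chemokines Cx3cl1, Cxcl12, Cxcl14, Ccl27a and Cxcl1, the interleukins Il18, Il33 and Il16, the growth factor Tgfb2, and the receptor genes Il6st, Il1rap, Il1r1, Tgfbr1, Tgfbr2, Tgfbr3, Ifngr2 and Tnfrsf1a. Ligand genes were above background in 9 of 68 cases and receptor genes in 8 of 55.

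**Figure D1:**
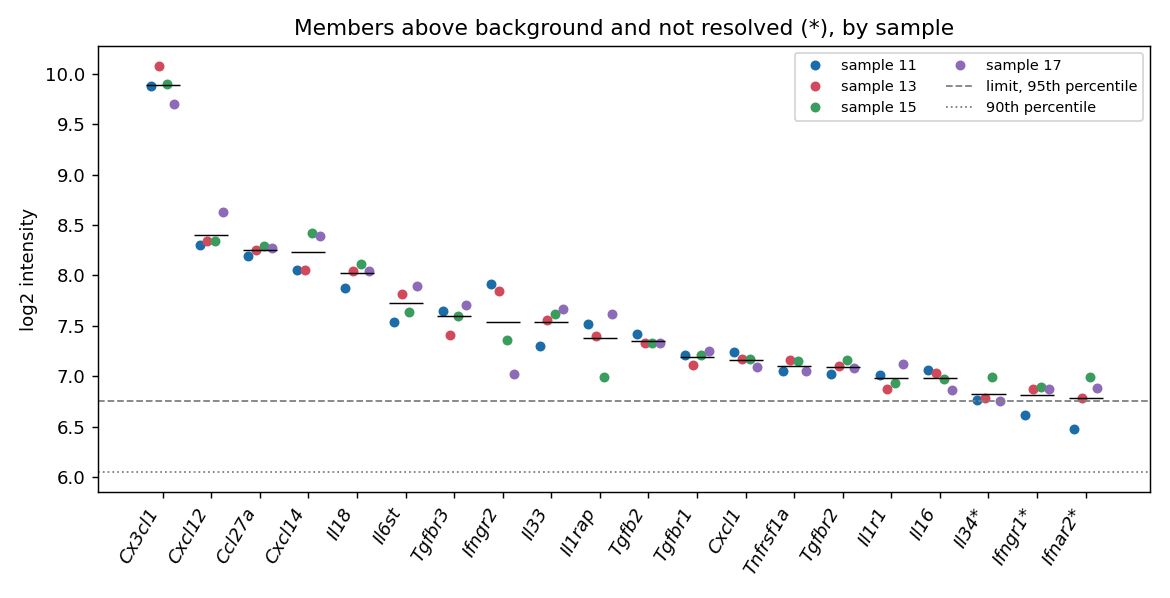
Log2 intensity in each sample (coloured points) and the mean (black bar) of the 20 genes above background or not resolved (asterisk), with the limits of 6.75 (dashed) and 6.05 (dotted). All 4 samples lie over 6.75 for each of the 17 genes called above, and samples fall on both sides of it, or close to it, for Il34, Ifngr1 and Ifnar2.

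The stretches upstream of 6 of these genes are shown because median counts of CG dinucleotides there differed, untested, between genes above and under background. Each is the 250 bases before the gene's start in RefSeq's GRCm38.p6 table, written 5′ to 3′ along the gene, with CG dinucleotides in capitals. Cx3cl1, Il6st and Il18 were above background, and Il1b, Il6 and Tnf, which encode the inflammatory cytokines interleukin 1 beta, interleukin 6 and tumour necrosis factor, were under it.
Cx3cl1, chr8:94771930-94772179, plus strand: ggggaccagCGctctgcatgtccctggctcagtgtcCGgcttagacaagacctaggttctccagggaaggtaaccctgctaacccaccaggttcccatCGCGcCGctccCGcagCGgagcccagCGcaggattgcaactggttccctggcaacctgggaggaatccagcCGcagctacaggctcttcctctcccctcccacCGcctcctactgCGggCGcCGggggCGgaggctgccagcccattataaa
Il6st, chr13:112463820-112464069, plus strand: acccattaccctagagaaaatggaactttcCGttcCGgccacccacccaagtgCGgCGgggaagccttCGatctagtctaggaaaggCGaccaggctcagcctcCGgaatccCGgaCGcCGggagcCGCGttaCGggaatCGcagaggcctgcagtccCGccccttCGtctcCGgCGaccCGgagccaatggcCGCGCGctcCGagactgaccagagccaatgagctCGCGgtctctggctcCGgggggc
Il18, chr9:50554450-50554699, plus strand: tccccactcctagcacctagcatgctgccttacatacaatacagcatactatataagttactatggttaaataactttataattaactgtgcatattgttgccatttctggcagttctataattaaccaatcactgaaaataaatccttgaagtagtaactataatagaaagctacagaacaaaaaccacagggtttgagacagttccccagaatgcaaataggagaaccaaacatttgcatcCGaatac
Il1b, chr2:129371140-129371389, minus strand: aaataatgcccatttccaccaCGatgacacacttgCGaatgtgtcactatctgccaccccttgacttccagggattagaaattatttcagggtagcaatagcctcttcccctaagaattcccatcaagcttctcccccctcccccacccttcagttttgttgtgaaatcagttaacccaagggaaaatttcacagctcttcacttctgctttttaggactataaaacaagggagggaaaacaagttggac
Il6, chr5:30012864-30013113, plus strand: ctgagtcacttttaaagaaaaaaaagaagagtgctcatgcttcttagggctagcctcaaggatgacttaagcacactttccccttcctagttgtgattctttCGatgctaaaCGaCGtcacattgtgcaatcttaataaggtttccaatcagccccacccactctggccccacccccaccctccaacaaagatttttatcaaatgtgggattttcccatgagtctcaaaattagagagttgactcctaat
Tnf, chr17:35202008-35202257, minus strand: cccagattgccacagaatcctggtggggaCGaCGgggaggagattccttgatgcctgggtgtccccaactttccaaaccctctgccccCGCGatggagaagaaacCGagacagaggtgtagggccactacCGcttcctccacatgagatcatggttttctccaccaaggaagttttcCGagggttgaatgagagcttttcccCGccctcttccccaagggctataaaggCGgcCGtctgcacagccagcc

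These windows held 14 CG dinucleotides for Cx3cl1, 26 for Il6st and 1 for Il18, and 2 for Il1b, 3 for Il6 and 10 for Tnf. Il18 thus stood above background with a window poorer in CG than those of the 3 inflammatory genes. The table held 102 of the 133 genes. The 16 genes above background among them had a median of 11 CG dinucleotides, and the 84 under it a median of 3. Over all array genes in the table the medians were 17 for genes above and 8 for genes under background. In both classes the cytokine and receptor genes thus had a lower median than the array's genes of the same class. The letters TATAAA, searched on both strands, occurred in the windows of 21.6% of the 102 cytokine and receptor genes. The share was 10.5% of the 14369 array genes in the table and 14.3% of all 27025 genes in the table. A gene counted if the window of any of its listed starts held a match. TATAAA was found for 4 of 16 genes above background and 18 of 84 under it. Among the windows shown TATAAA began at position -6 of Cx3cl1, -31 of Il1b and -29 of Tnf, counted back from the start. In Il18 it lay at -175 on the reverse strand. A motif that reads GGG, then any 3 bases, then TTCC is part of the sequences bound by NF-kappaB. Searched on both strands, it occurred in 17.6% of the 102 genes. The share was 5.76% of the array genes in the table and 5.31% of all genes in the table. The window of Il6 held it at position -44. Among the cytokine and receptor genes it was found for 4 of 16 genes above background and 14 of 84 under it. Such matches describe letters and not binding, and no test was made of these shares or of the CG counts.

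**Figure D2:**
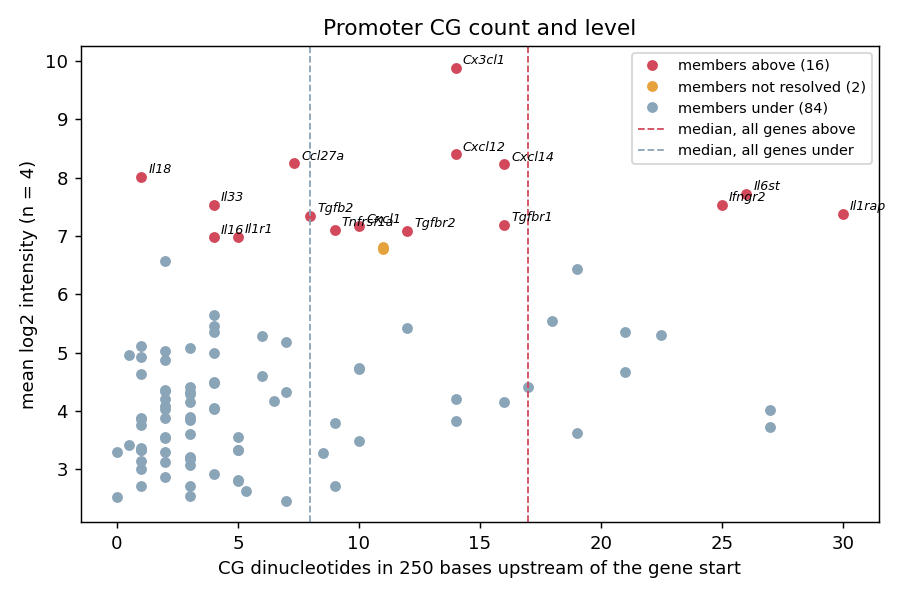
CG dinucleotides in the 250 bases upstream of the start (x axis, mean over a gene's listed starts) against mean log2 intensity (y axis, n = 4) for the 102 genes with a listed start, coloured by call. The dashed lines mark the medians over all array genes with a listed start, 17 for genes above and 8 for genes under background. Of the genes above background, Il18, Il33, Il16, Il1r1 and Ccl27a lie left of both.

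Of 32 chemokine genes, 5 were above background and 27 under it. Cx3cl1, the membrane-tethered neuronal chemokine, had levels of 9.88, 10.08, 9.90 and 9.70 in samples 11, 13, 15 and 17. The samples lay within a 1.30-fold span, highest in sample 13 and lowest in sample 17, and the level of 9.89 exceeded the limit by 3.14 ± 0.065 (SE; limma, adjusted p = 9.13e-07). Its second probe set stood at 6.84 ± 0.067 and the others at 4.401 and 3.77.

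Cxcl12, the ligand of CXCR4 and ACKR3, had levels of 8.31, 8.34, 8.34 and 8.63 in samples 11, 13, 15 and 17. Sample 17 stood apart from the other samples, which lay close together. The level exceeded the limit by 1.65 ± 0.066 (SE; limma, adjusted p = 1.08e-05). Its second probe set, at 7.49, 7.41, 7.39 and 7.39, was over the limit as well but was not raised in sample 17.

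Cxcl14, a chemokine without an agreed receptor that interneurons express, was lower in samples 11 and 13, both at 8.05, than in samples 15 and 17, at 8.42 and 8.39. Its second probe set gave 7.44, 7.48, 7.76 and 7.60 and thus the same split between these pairs of samples. The SD of 0.21 was larger than that of 93.7% of all genes on the array. Samples 15 and 17 were also those with the larger 3′ minus 5′ difference of Gapdh, given below, and its part in the difference was not tested.

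Ccl27a, known as a skin chemokine, stood at 8.19, 8.25, 8.29 and 8.27, with a spread among the samples of only 0.042 (SD). It was read by 1 probe set whose identifier ends in x_at, the array maker's mark for probes that also match other sequences, and the mouse genome holds near-identical copies of this gene, so the signal cannot be given to Ccl27a alone. The 2 probe sets that the annotation pairs with Ccl27a and its copies together stood at 8.35 and 8.42. Cxcl1, which attracts neutrophils through CXCR2, had levels of 7.24, 7.17, 7.17 and 7.09 by an x_at probe set. Its probe set with a plain identifier stood at 2.87, 2.97, 3.02 and 2.97, far under background, and an s_at one at 5.74 on average. The call for Cxcl1 therefore rested on the least specific of its 3 probe sets.

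Ccl2, Ccl3, Ccl5 and Cxcl10 were called under background. Ccl2, which recruits monocytes, had a level of 3.83 ± 0.079, Ccl3 of 2.87 ± 0.10 and Ccl5, which attracts T cells, of 4.09 ± 0.054. The interferon-induced Cxcl10 stood at 3.34 ± 0.11. Ccl1, Ccl11 and Ccl12 had levels of 3.32, 2.78 and 3.33. All of these lay more than 2 log2 units below the limit. Cxcl16, named after its values were seen, was called under background at 6.27, with the same deposited value in all 4 samples, and was above the 90th percentile limit.

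No chemokine receptor was above background. All 15 measured genes, with levels between 2.71 and 5.29, were called under it (limma, adjusted p under 0.05). Ccr1 stood at 3.14 ± 0.17, Ccr10, a receptor of CCL27 and CCL28, at 5.29 ± 0.040, and Ccr1l1 at 3.55 ± 0.17. Ccr2, the CCL2 receptor of monocytes, had a level of 4.92 ± 0.064 and Cxcr4 of 3.62 ± 0.085. Cx3cr1, the microglial receptor of CX3CL1, falls outside the set by its symbol and was above background at 7.71, 7.63, 7.63 and 7.63. The atypical receptors, which take up or scavenge chemokines, were split: Ackr3, a receptor of CXCL12, stood at 7.19 ± 0.067 and Ackr1 at 8.87 ± 0.044, while Ackr2 had a level of 3.87 ± 0.077 and Ackr4 of 5.37 ± 0.088. Ackr1 was singled out after its values were seen.

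**Figure D3:**
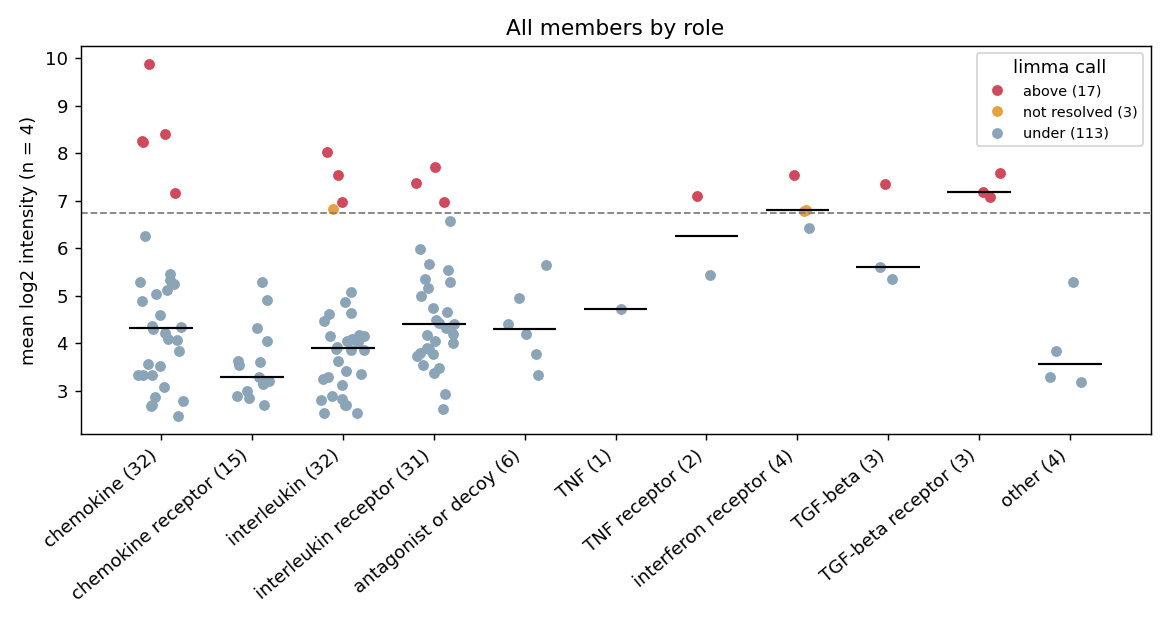
Mean log2 intensity (n = 4) of all 133 genes by role, with the number of genes in parentheses, the limit of 6.75 (dashed), the median of each role (black bar) and colours for the limma call. The points spread sideways only for legibility; no chemokine receptor reaches the limit and all 3 TGF-beta receptors lie over it.

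Interleukin ligands were above background in 3 of 32 cases, and 28 were under it. Il18, a cytokine of the interleukin 1 family that inflammasomes activate, stood at 7.88, 8.05, 8.12 and 8.04 in samples 11, 13, 15 and 17, lowest in sample 11. Il33, a nuclear alarmin that glia hold in the brain, had levels of 7.30, 7.56, 7.61 and 7.67, again lowest in sample 11 (limma against the limit, adjusted p = 0.000288). Il16, made as a precursor of which neurons have their own form, stood at 7.07, 7.03, 6.98 and 6.86, all close over the limit (adjusted p = 0.00469), and its other probe sets lay between 3.75 and 5.66 on average. Il34, a ligand of the microglial receptor CSF1R, was not resolved at 6.76, 6.79, 6.997 and 6.75 (adjusted p = 0.225), but was above background without sample 15 (limma, adjusted p = 0.0238). The limit was set anew for that fit and fell to 6.71. Csf1r itself was above background at 9.89 ± 0.15.

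Il1b, Il6, Il10, Il11 and Il12a were called under background. Il1b had levels of 4.06, 4.06, 4.05 and 4.18 in samples 11, 13, 15 and 17, with a mean of 2.66 below the limit. Il6 stood at 2.57, 2.57, 2.62 and 2.41. The anti-inflammatory Il10 had a level of 2.70 ± 0.031, Il11 of 4.18 ± 0.056 and Il12a of 3.28 ± 0.24. None of these genes reached the limit in any sample.

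Among the interleukin receptor genes 3 of 31 were above background (9.68%), against 38.4% of all genes on the array. Il6st, the gp130 chain shared by the interleukin 6 family, stood at 7.54, 7.82, 7.63 and 7.90, with samples 13 and 17 over samples 11 and 15. Its other probe sets, far under the limit at 4.78, 3.94 and 3.19 on average, did not repeat this split. Il6ra, the chain specific for interleukin 6, was under background at 5.55 ± 0.12. Il1r1, the signalling receptor of interleukin 1, had levels of 7.01, 6.88, 6.93 and 7.12 (limma, adjusted p = 0.00708) by 1 of its 2 probe sets, the other standing at 2.44. Il1rap, the accessory chain of that receptor, which also acts in synapse formation, stood at 7.52, 7.40, 6.99 and 7.62 and was lowest in sample 15. Its second probe set over the limit gave 7.09, 6.64, 7.06 and 7.50 and was lowest in sample 13, so the probe sets ordered the samples differently.

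Receptor chains under background included Il10ra at 4.21 ± 0.063, Il10rb at 5.99 ± 0.10 and Il12rb1 at 4.43 ± 0.11. Il17re, of the interleukin 17 receptor family, was nearest to the limit from below, at 6.66, 6.59, 6.50 and 6.54 (limma, adjusted p = 0.00590), and Ifnar2 nearest from above. All 6 antagonists and decoys were under background, among them Il18bp, the soluble trap of interleukin 18, at 5.65 ± 0.034, the decoy Il13ra2 at 3.33 ± 0.077 and the receptor antagonist Il1f5 at 4.96 ± 0.16. The interleukin 1 receptor-like genes Il1rapl1 and Il1rapl2, which organise synapses, stood at 5.29 ± 0.095 and 3.83 ± 0.11, and Il1bos, an RNA antisense to Il1b, at 3.30 ± 0.092.

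Of the receptor classes in the set, only that of TGF-beta, with 3 genes, had every gene above background. Tgfbr1, the signalling type I receptor, had levels of 7.21, 7.11, 7.21 and 7.25 in samples 11, 13, 15 and 17. Tgfbr2, the ligand-binding type II receptor, stood at 7.02, 7.10, 7.16 and 7.08, and the co-receptor Tgfbr3 at 7.65, 7.41, 7.60 and 7.71. All were above background in every sample, by 1 probe set each, and the remaining probe sets of the 3 genes lay between 2.76 and 5.37 on average. Of the ligands, Tgfb2 was above background at 7.42, 7.33, 7.33 and 7.33, and its other 3 probe sets averaged 7.20, 6.72 and 6.36. Tgfb1, the form tied to immune regulation, was under it at 5.25, 5.31, 5.39 and 5.45, as was Tgfb3 at 5.61 ± 0.17.

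Of the tumour necrosis factor receptor genes 1 of 2 was called above background, and of the interferon receptor genes 1 of 4. The share over all genes on the array was 38.4%. Tnf was under background at 4.79, 4.79, 4.68 and 4.63 in samples 11, 13, 15 and 17. Its broadly expressed receptor Tnfrsf1a stood at 7.05, 7.16, 7.15 and 7.05, above background in all samples, and Tnfrsf1b, found on immune cells and glia, at 5.43 ± 0.059. Ifngr1, the binding chain of the interferon gamma receptor, was not resolved at 6.61, 6.87, 6.89 and 6.87 (limma, adjusted p = 0.345), but was above background without sample 11 (limma, adjusted p = 0.0103). The limit, set anew for that fit, was 6.83. Ifnar2 of the type I interferon receptor was not resolved at 6.47, 6.78, 6.99 and 6.88 (adjusted p = 0.760). Its partner Ifnar1 was under the limit at 6.43 ± 0.088. All 4 interferon receptor genes were above the 90th percentile limit.

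Ifngr2, the signalling chain of the interferon gamma receptor, varied most between samples among the 17 genes. It stood at 7.92, 7.85, 7.36 and 7.02 in samples 11, 13, 15 and 17, a 1.87-fold span, and its SD of 0.43 exceeded that of 99.7% of all genes on the array. The Gapdh 3′ minus 5′ difference, a measure of how much signal is lost toward the 5′ end of a transcript, was 0.62, 0.62, 2.64 and 3.79 in the same samples, so Ifngr2 was lower where that difference was larger. The other probe set of Ifngr2 gave 5.97, 6.17, 6.18 and 6.03 and did not follow this order. Ifngr2 exceeded the limit by 0.79 ± 0.18 (SE; limma, adjusted p = 0.0104) and was not resolved without sample 11, 13 or 15. Il16 and Il1rap were not resolved without sample 11 or 13, nor Il1r1 without sample 11. The limit was set anew in each such fit, at 6.83 without sample 11, 6.78 without sample 13 and 6.71 without sample 15. The part of the 5′ signal in the spread of Ifngr2 was not tested.

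**Figure D4:**
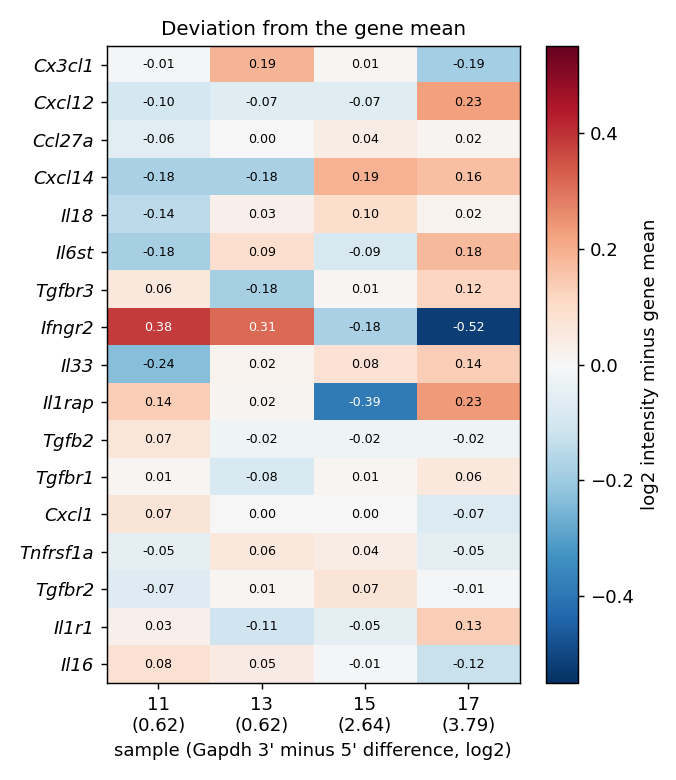
Deviation of each sample from the gene's mean (log2 intensity, colour and number) for the 17 genes above background, with the Gapdh 3′ minus 5′ difference of each sample in parentheses on the x axis. Ifngr2 runs between 0.38 in sample 11 and -0.52 in sample 17, Il1rap is low in sample 15 at -0.39, and Cxcl14 divides samples 15 and 17 from 11 and 13.

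The 17 genes did not share 1 order of samples. Sample 11 was highest for 4 genes, sample 13 for 2, sample 15 for 4 and sample 17 for 7, against 9.26%, 18.1%, 27.6% and 38.8% of all genes above background. Sample 11 was lowest for 6 genes, sample 13 for 3, sample 15 for 1 and sample 17 for 4, with 3 ties, against 47.7%, 18.4%, 12.8% and 13.1%. Deviations from the gene means averaged -0.011, 0.0078, -0.015 and 0.018 for samples 11, 13, 15 and 17, against -0.050, -0.0019, 0.020 and 0.033 over all genes above background. After a further quantile normalization the averages for samples 11 and 17 were 0.023 and -0.0016, so their signs depended on the scaling. The 6 genes with the largest SD were Ifngr2, Il1rap, Cxcl14, Il6st, Il33 and Cx3cl1, with SDs between 0.15 and 0.43. The median SD was 0.10 for the 17 genes and 0.081 for all genes above background.

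The spread between samples was set against limma's prior for probe sets of like level. Of the 20 genes with a mean over the limit, 0 passed this limma test after adjustment, and Ifngr2 alone did before it (limma, unadjusted p = 0.0309, adjusted p = 0.891). Over the array 0 of 11383 probe sets passed (0%), and 3.08% had an unadjusted p under 0.05. Each sample is a single array, so the differences between samples have no replicate of their own, and a count of 0 here does not show that the samples were alike.

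Ligand genes were set beside the genes of their receptors. Of 56 textbook pairs, 41 had every gene measured. In 3 of them the ligand and all receptor chains were above background: Cx3cl1 with Cx3cr1, Cxcl12 with Ackr3, and Tgfb2 with Tgfbr1 and Tgfbr2. With the 90th percentile limit Il34 and Csf1r were above as well, and with the highest background gene as the limit 0 pairs were complete. In 4 pairs only the ligand was above background. These were Cxcl12 with Cxcr4, Cxcl1 with Cxcr2 (3.003 ± 0.060), Ccl27a with Ccr10, and Il18, whose receptor chains Il18r1 and Il18rap stood at 2.63 ± 0.099 and 4.997 ± 0.097. In 6 pairs only the receptor was. These were Il1a and Il1b with Il1r1 and Il1rap, Tnf with Tnfrsf1a, Tgfb1 and Tgfb3 with the TGF-beta receptors, and Il34 with Csf1r. The remaining 28 pairs had neither side complete. Il1rl1 and Il2rg were not analysed here.

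Signalling genes downstream of these receptors were counted from lists. Of the JAK, STAT and SOCS genes, 8 of 20 were above background and 12 under it, with the kinase Jak1 at 9.81 ± 0.070, Stat3 at 7.76 ± 0.19, the feedback inhibitor Socs3 at 4.598 ± 0.068 and the lymphoid kinase Jak3 at 5.04 ± 0.065. Of the NF-kappaB and interleukin 1 receptor pathway, 8 of 22 were above, among them Irak1 at 7.92 ± 0.063, Rela at 8.04 ± 0.15 and the inhibitor Nfkbia at 9.57 ± 0.16, while the adaptor Myd88 stood at 5.29 ± 0.15. TGF-beta pathway genes were above in 10 of 17 cases, under in 4 and not resolved in 3. Smad3 at 8.82 ± 0.17 and Smad4 at 8.85 ± 0.033 were above. The 3 not resolved were Smad2 at 6.77 ± 0.16, Smad5 at 6.73 ± 0.082 and Itgb8 at 6.70 ± 0.15. The receptor gene Acvrl1, outside the set by its symbol, was under at 4.59 ± 0.028. Of the inflammasome and interferon genes, 1 of 16 was above, Irf3 at 7.54 ± 0.057, and Casp1, which cleaves interleukins 1 beta and 18, stood at 3.15 ± 0.16. Partners of the colony-stimulating factor and gp130 families were above in 4 of 15 cases, among them Csf1 at 7.16 ± 0.018 and the leukaemia inhibitory factor receptor Lifr at 8.33 ± 0.12, and chemokine partners in 7 of 14. These examples were chosen after their values were seen. The share over the whole array was 38.4%.

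Markers of the cell types present were counted in the same way. All 14 measured leukocyte markers were under background, with levels between 2.67 and 5.60 and a list mean between 3.93 and 3.997 over the samples. Microglial markers were above background in 6 of 10 cases, among them C1qa at 8.46 ± 0.19, with a list mean between 6.99 and 7.20. Itgam at 3.09, Aif1 at 5.90, P2ry12 at 6.03 and Trem2 at 6.15 were under background. A marker under background thus does not show that its cells were absent. All 6 astrocyte markers were above background. Endothelial markers were above in 3 of 7 cases, meningeal markers in 3 of 7, oligodendrocyte markers in 4 of 5 and choroid plexus markers in 0 of 6, where Ttr, the transthyretin gene, was not resolved at 7.36, 9.84, 6.86 and 6.54 in samples 11, 13, 15 and 17 and thus stood highest in sample 13. Its part in any result was not tested.

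The call depended on which probe set stood for a gene. Of the 17 genes above background, 13 had 2 or more probe sets, and for 8 of these the other probe sets were all under the limit. The genes Cx3cl1, Cxcl12, Cxcl14, Il1rap and Tgfb2 had at least 2 probe sets over it. Of the cytokine and receptor genes with several probe sets 13 of 53 were above background, and of those with 1 probe set 4 of 80, against 53.3% and 23.8% of all genes.

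**Figure D5:**
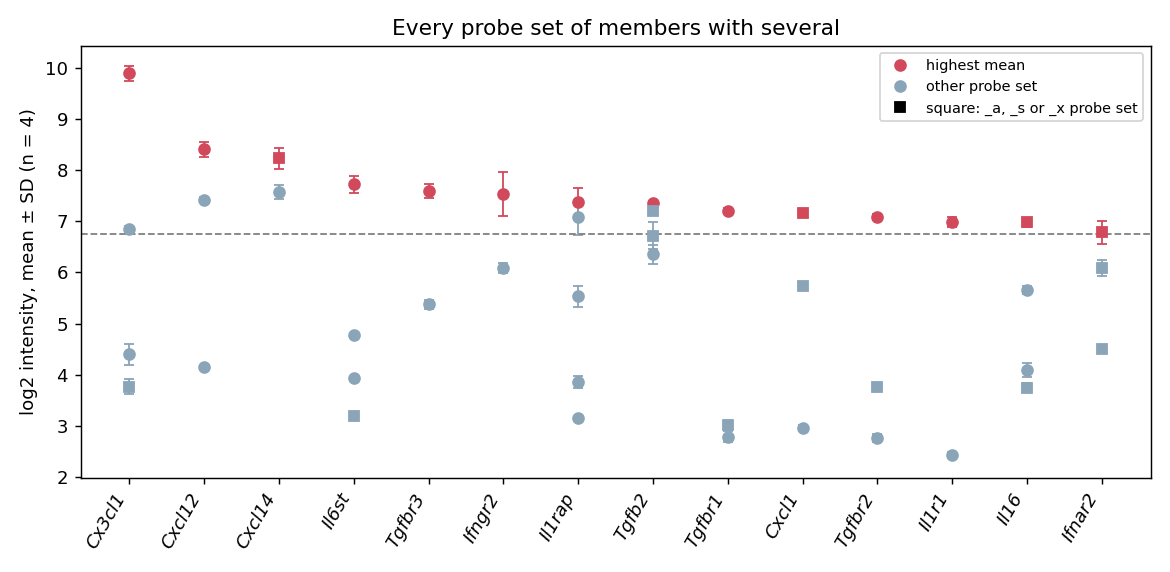
Mean ± SD of log2 intensity (n = 4) of every probe set of the 14 genes above background or not resolved that have several, with the limit of 6.75 (dashed). Red marks the probe set with the highest mean, and squares mark identifiers ending in a_at, s_at or x_at; for Tgfbr1 and Tgfbr2 the other probe sets lie more than 3 log2 units lower.

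No run of neighbouring genes held more than 1 gene above background. Only 12.8% of the 133 genes were above background, so short runs with 0 or 1 such gene do not set the runs apart. Whether the runs held fewer such genes than their length and this share would give was not tested. By their order in RefSeq's GRCm38.p6 table, 56 of the genes stood next to another gene of the set, in 18 runs, and 5 of the 56 were above background, against 12 of 75 others, a difference that was not tested. The runs of 6 and of 5 CC chemokine genes on chromosome 11, which hold Ccl2, Ccl3 and Ccl5, and the run of 6 interleukin 1 family genes on chromosome 2, which holds Il1rn, had 0 above. Cx3cl1 lies between Ccl22 and Ccl17 on chromosome 8, and of the 3 only Cx3cl1 was above background, with Ccl22 at 4.61 and Ccl17 at 4.30. On chromosome 16 the run of Ifnar2, Il10rb, Ifnar1 and Ifngr2 held 1 gene above background, Ifngr2.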

How the data were processed

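Total RNA from the left hippocampus was DNase-treated and biotin-labelled before hybridisation, per the labels' protocols. The authors deposited log2 intensities, 1 per probe set and sample. The submitters' processing notes name RMA, which corrects background, brings arrays to a common distribution and summarises probes; no version or setting is given in those notes. At least 2 samples shared an identical value in 48.2% of the 18194 genes and in 80 of the 133 studied genes, which lowers SDs. The number of arrays, 4, limits the precision.

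The annotation paired 34958 of 45101 probe sets with 1 symbol. Of 56 background genes listed, 52 were measured. Levels were tested two-sided against the limit, taken as fixed, with limma (an intercept model, trended and robust eBayes) and Benjamini-Hochberg adjustment over all genes. The spread test used the residual over the prior variance as an F statistic. Both were tested on simulated data; with unequal variances as fitted, the spread test found none of the planted changes, so its lack of calls carries little weight.

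The genes, lists and tests were chosen with earlier results of these data known. Named genes are those above background or not resolved, the nearest on either side of the limit, the first 3 by symbol in each role under it, fixed inflammatory genes and genes of the ligand and receptor pairs. Software was R 4.3.3 with limma 3.58.1, and Python 3.11.15 with matplotlib 3.10.9 for plots. Alternatives covered the limit, probe set, normalization, prior, threshold, filter and each sample left out.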

Additional observations from a re-analysis of the deposited data

Results flagged for a closer look

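Among 21 genes examined, the 20 with a mean over the limit and Il17re, 4 had 1 sample apart from the other samples. The measure was the gap to the nearest sample divided by the whole range, set against Dixon's 95% critical value. Chance gives about 1 in 20 such genes, and equal deposited values, common in these data, make gaps look large. For Cxcl12 the ratio was 0.903, with sample 17 highest at 8.63. For Ifngr1 it was 0.936, with sample 11 lowest at 6.61. For Il34 it was 0.858, with sample 15 highest at 6.997. For Tgfb2 it was 0.987, with sample 11 highest at 7.42.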

How the results depend on the processing

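The 17 genes above background were also above it after quantile normalization again, after centring the columns, with eBayes without trend and robust, and with tests limited to genes over the median of all genes, and 16 were at an adjusted p of 0.01, where Ifngr2 missed it. Leaving out each sample in turn gave 14 to 17 genes, of which 13 to 17 were among these 17, a mean over the limit for 19 to 20 genes and 3 to 4 complete ligand and receptor pairs, and 0 genes with a larger spread; Ifngr2, Il16, Il1rap and Il1r1 each lost the call in at least 1 such fit, Ifngr1 gained it without sample 11 and Il34 without sample 15, and Ifnar2 lay between -0.00081 and 0.067 from the limit, which was set anew each time. With the highest background gene as the limit, 7.84, 5 genes were above, 5 had a mean over it and 0 pairs were complete. The differences from the limit then were -0.68 for Cxcl1, -1.06 for Ifnar2, -1.03 for Ifngr1, -0.31 for Ifngr2, -0.86 for Il16, -0.86 for Il1r1, -0.46 for Il1rap, -0.31 for Il33, -1.02 for Il34, -0.12 for Il6st, -0.49 for Tgfb2, -0.65 for Tgfbr1, -0.75 for Tgfbr2, -0.25 for Tgfbr3 and -0.74 for Tnfrsf1a. Taking the median of all probe sets per gene, 7 genes were above, against 24.0% of all genes, and 10 had a mean over the limit. There the differences were -1.08 for Cx3cl1, -0.96 for Cxcl1, -0.62 for Ifnar2, -1.83 for Il16, -1.99 for Il1r1, -1.17 for Il1rap, -2.35 for Il6st, -3.68 for Tgfbr1, -2.94 for Tgfbr2 and -0.22 for Tgfbr3, since their other probe sets were lower. Some alternatives were added after seeing the data. With plain probe set identifiers only, the limit fell to 6.47 and 16 genes were above, 14 of them among the 17. Cxcl1 and Il16 then stood at -3.51 and -0.81 from the limit, and Ccl27a had no such probe set. Ifngr1, read by the same probe set as before at 6.81, was among the genes that gained the call at this lower limit. Without samples 15 and 17 the limit was 6.59 and 16 genes were above, 15 of them among the 17. Il33 (limma, adjusted p = 0.0577) and Il1r1 (0.0750) lost the call there and Il34 gained it (0.0197). The mean deviations of the 17 genes moved: quantile normalization gave 0.023 in sample 11 and -0.0016 in sample 17, centring -0.028 and 0.040, and the median over probe sets 0.018 in sample 15 and -0.015 in sample 17. The cause was not tested. No paired analysis was possible because the samples form 1 group. A second list of background genes was not run, since only 1 list was at hand.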

Other observations

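Of 7 probe sets that the annotation pairs with several symbols, at least 1 of which would have matched the set, 4 lay over the limit of 6.75, with means between 7.19 and 8.42. They were left out of every count because no single gene can be named from them. Between the limit and the 90th percentile limit of 6.05 lay Il17re, Ifnar1 and Cxcl16, which were called under the first and above the second. Il10rb, at 5.99, was not resolved against the second. Of the 113 genes under background, 70 had a level over 3.69, the median of the background genes.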
